A study of Homo sapiens with 16 samples.

Results

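The genes described here were 10 immune ligands that tumour cells can carry on, or release from, their surface: CD274, PDCD1LG2, CD276, CD70, CD80, VTCN1, NECTIN2, PVR, LGALS9 and CD47. They were taken as a list of names, drawn up with earlier results of these data known, and all 10 were among the 57773 genes of the count table. The table held bulk RNA-seq counts of 16 libraries from 4 lines of human clear cell renal cell carcinoma (ccRCC) that are established in culture: A498, 769-P, 786-O and CAKI-2. In each line, populations of cells, not single clones, had been infected with a lentivirus carrying Cas9 and a guide RNA. Every line had 1 library with a non-targeting guide (sgCtrl) and 2 sgKDM5C libraries, numbered 4 and 5 by their guide against KDM5C, a histone demethylase gene on chromosome X. Lines 786-O and CAKI-2 also had 2 sgKDM5D libraries, numbered 2 and 4 by their guide against the homologue KDM5D on chromosome Y. Line and genotype gave 10 groups. The study describes puromycin selection for the sgCtrl and sgKDM5C cells. For the sgKDM5D cells it does not say which drug was used, and its viruses carried resistance to either puromycin or neomycin. A difference in selection between sgKDM5D and sgCtrl therefore cannot be told apart from the guide. Libraries of a line came from the same cell line, so the p-values below measure the spread between libraries. That spread came from the 2 guides of each sgKDM5C or sgKDM5D group, since each sgCtrl group had 1 library.

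A tumour cell meets T cells and natural killer cells through surface proteins that either restrain or activate them. PD-L1 (the product of CD274) and PD-L2 (PDCD1LG2) bind the inhibitory receptor PD-1 on T cells, and CD80 binds both the activating CD28 and the inhibitory CTLA-4. B7-H3 (CD276) and B7-H4 (VTCN1) belong to the same B7 family. CD70 is the ligand of CD27, a receptor of the tumour necrosis factor receptor family, and is known to be abundant in ccRCC. NECTIN2 and PVR are adhesion proteins seen by the activating receptor DNAM-1 and by the inhibitory receptors TIGIT and, for NECTIN2, PVRIG. Galectin-9 (LGALS9) is a ligand of TIM-3, and CD47 signals to macrophages through SIRPA not to engulf the cell. In ccRCC, loss of VHL stabilises the hypoxia-inducible factors, and interferon-gamma is a strong inducer of PD-L1 through a pathway that includes the kinases JAK1 and JAK2 and the factor IRF1.

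The libraries held from 23398449 to 41617439 counted reads each. Of the tested genes (20175, those with a sum of at least 60 counts), the edgeR quasi-likelihood test included 9 ligands, since CD80 had 0 to 5 counts in every library. In bulk RNA, fewer cells with a transcript and less of it per cell cannot be told apart. Levels are given as CPM, the usual depth-scaled count, with library totals corrected by TMM, and levels of different genes are compared only per kilobase of the canonical transcript (RPKM). KDM5C transcript was at 26.2% to 57.3% of the line's control in the 8 sgKDM5C libraries, while KDM5D transcript was at 76.2% to 103% of control in the 4 sgKDM5D libraries, so the amount of KDM5D transcript does not check that label. The library of 786-O with sgKDM5C 4 and that of 769-P with sgKDM5C 4 lay furthest from the rest of their line, with an SD of log2 differences of 0.378 and 0.37 against 0.15 to 0.286 in the other libraries. The renal marker PAX8 was at a mean of 168 to 930 CPM by line. Of 9 matched renal epithelium and ccRCC markers, 6 were above 1 CPM in every library of 786-O, 7 of 769-P and 8 each of CAKI-2 and A498. CA9 had 2 reads each in 786-O and CAKI-2 and 0 in 769-P, against a mean of 7.02 CPM in A498. NDUFA4L2 had 0 reads in 769-P and a mean of 0.542 CPM in 786-O, and EPCAM a mean of 0.58 CPM in A498. Of 15 leukocyte markers, the lines had 1 or 2 above 1 CPM in every library, and their summed level was 2.71 to 4.05 CPM in 769-P, 6.77 to 7.79 in A498, 7.11 to 9.7 in 786-O and 20.8 to 28.9 in CAKI-2. The pan-leukocyte gene PTPRC had 6 reads in all 16 libraries together, and CD3E and MS4A1 had 0. The exceptions above 1 CPM were CSF1R in 786-O (mean 7.63 CPM), ITGAM in CAKI-2 (22.6), A498 (3.43) and 769-P (2.99), and NKG7 in A498 (2.24). Endothelial markers summed to 18.8 to 26.5 CPM in CAKI-2, mostly ESAM, and to 0.213 to 2.43 CPM elsewhere, and fibroblast markers summed to 5.6 to 42.3 CPM, highest in A498.

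CD274 and PDCD1LG2 are neighbours on chromosome 9. In GRCh37, CD274 (ENSG00000120217) lies at chr9:5450503-5470566 and PDCD1LG2 (ENSG00000197646) at chr9:5510531-5571282, both on the plus strand and 39964 bases apart. The part of the CD274 promoter that interferon signalling is known to act through is shown as background to the regulators of PD-L1 described below. The sequence covers the first 200 of the 250 bases that precede the RefSeq start of CD274 (GRCh38.p14, plus strand, chr9:5450292-5450491), and the capitals mark 2 overlapping matches on the minus strand to GAAANNGAAA, the repeat bound by interferon regulatory factors.
CD274 promoter: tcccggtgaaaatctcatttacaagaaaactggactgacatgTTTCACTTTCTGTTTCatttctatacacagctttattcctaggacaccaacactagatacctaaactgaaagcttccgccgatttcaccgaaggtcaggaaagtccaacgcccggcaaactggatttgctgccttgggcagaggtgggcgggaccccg
The GAAANNGAAA matches cover bases 43 to 58 of the sequence shown. Searched on both strands, GAAANNGAAA was held by 2.39% of the windows of this length among 35116 RefSeq promoters. The other ligands with a promoter in the same table (7 of 9) did not hold the pattern in this window. A match is a description of the letters and not a measured binding site.

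CD70 was the most abundant of the 10 ligands per length in all 4 lines, and it was also the one whose level separated the lines most clearly among the abundant ligands. Its gene (ENSG00000125726, chr19:6583194-6604114, minus strand) was at 770 CPM in the A498 control library, 683 with sgKDM5C 4 and 595 with sgKDM5C 5. In 786-O, CD70 was at 561 CPM in the control, 363 and 539 with sgKDM5C 4 and 5, and 463 and 505 with sgKDM5D 2 and 4. In CAKI-2 the CD70 values were 108 CPM in the control, 74.7 and 96.4 with sgKDM5C, and 115 and 97.2 with sgKDM5D. In 769-P, CD70 was at 70.8, 61.4 and 57.9 CPM. The 4 lines did not overlap in any library, in the order A498, 786-O, CAKI-2, 769-P. Line means were 682 ± 87.5 CPM (SD, n = 3) in A498, 486 ± 78.3 (n = 5) in 786-O, 98.3 ± 15.3 (n = 5) in CAKI-2 and 63.3 ± 6.66 (n = 3) in 769-P. All steps in this order passed the edgeR test, in which a line's level was the mean of its sgCtrl and sgKDM5C groups: A498 over 786-O with an adjusted p of 0.0155, 786-O over CAKI-2 with 3.04e-08 and CAKI-2 over 769-P with 0.00691. From A498 to 769-P the log2 difference in CD70 level was 3.43 (SE 0.182, edgeR adjusted p = 1.03e-09).

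**Figure D1:**
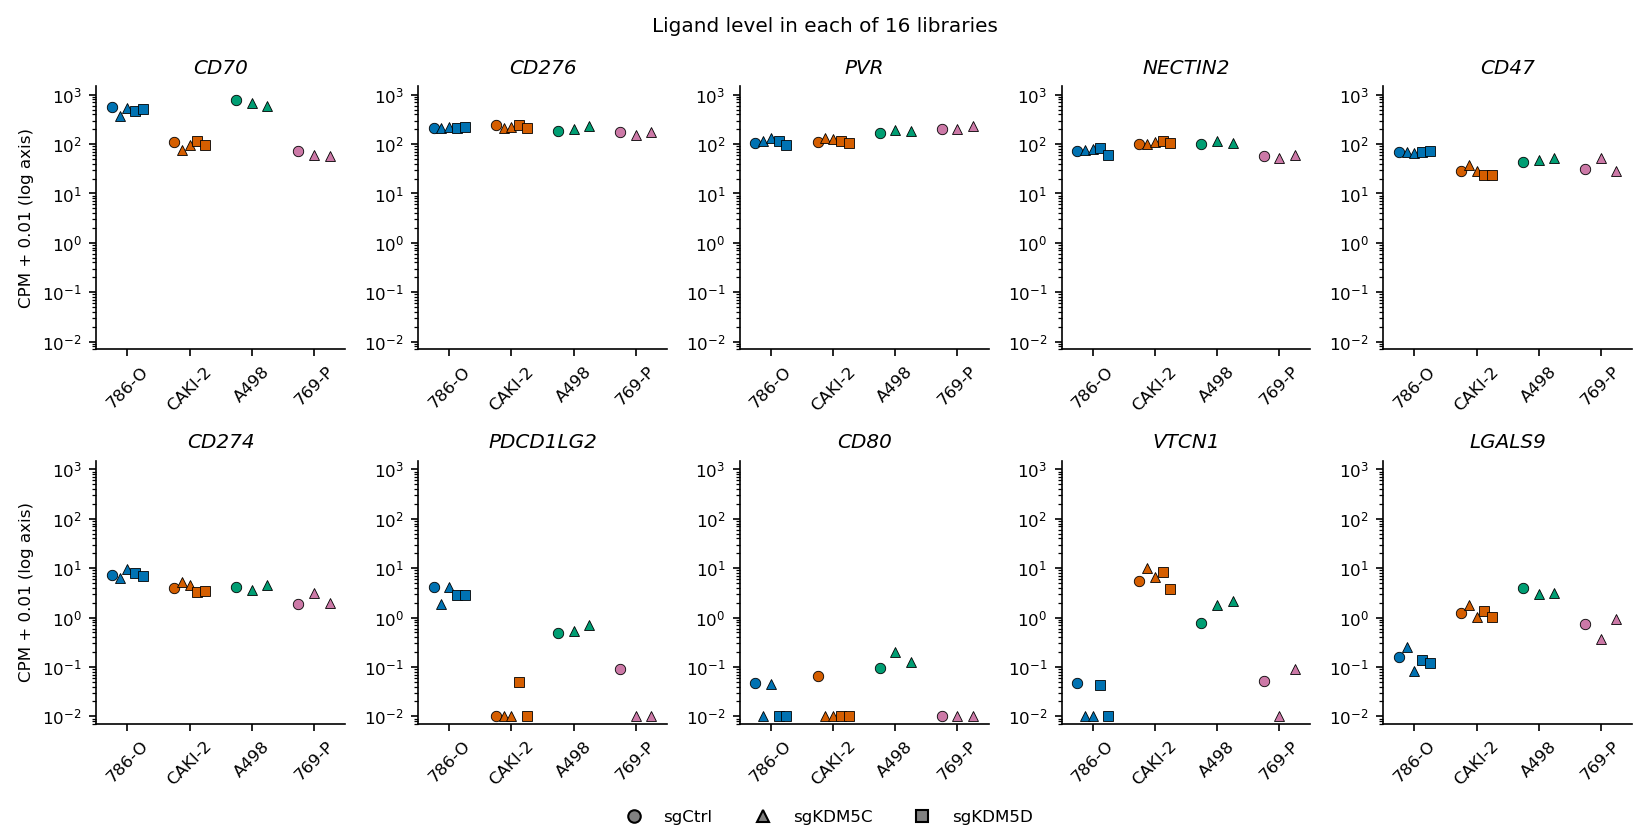
Level of each ligand in each of the 16 libraries, as CPM + 0.01 on a log axis, with libraries grouped by line along the horizontal axis and marked by genotype. CD70 separated all 4 lines (57.9 to 770 CPM), CD276 stayed between 150 and 243 CPM, and PDCD1LG2 and VTCN1 each fell to 0 to 2 reads per library in a pair of lines.

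CD70 made up 80.3% ± 2.8 (SD, n = 5) of the summed RPKM of the 10 ligands in 786-O and 83.5% ± 2.79 (n = 3) in A498. In CAKI-2 the CD70 share was 43.6% ± 3.87 (n = 5) and in 769-P 37.2% ± 3.03 (n = 3). The lowest library of the first pair of lines was at 75.9% and the highest of the second pair at 46.4%. CD276 came next in every line, at a mean of 51.2 RPKM in 769-P, 62.5 in A498, 65.4 in 786-O and 68.5 in CAKI-2. NECTIN2, PVR and CD47 filled the third to the fifth place, with NECTIN2 ahead of PVR in 786-O, CAKI-2 and A498 and PVR (36.6 RPKM) ahead of NECTIN2 (21.1) in 769-P. CD274 was at 0.648 to 2.09 RPKM, far below these 5. The remaining 4 ligands were at a mean of 2.66 RPKM or less in every line.

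**Figure D2:**
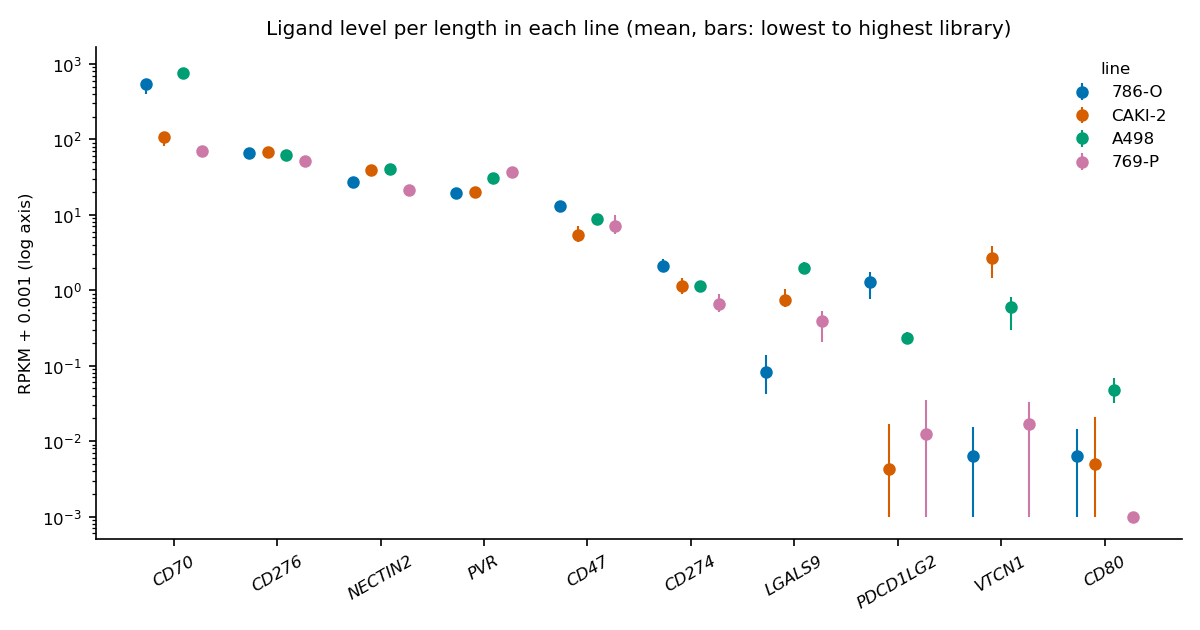
Mean level of each ligand per kilobase of its canonical transcript in each line, as RPKM + 0.001 on a log axis, with bars from the lowest to the highest library of the line (n = 5 for 786-O and CAKI-2, n = 3 for A498 and 769-P). CD70 was the top ligand of every line, CD276, NECTIN2, PVR and CD47 followed, and VTCN1 was at 2.66 RPKM in CAKI-2 and PDCD1LG2 at 1.3 in 786-O.

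With a level above 1 CPM in every library of a line as the measure of a carried ligand, a limit chosen after the values were seen, CAKI-2 carried 8 ligands, 786-O and A498 carried 7 each and 769-P carried 6. CD70, CD276, NECTIN2, PVR, CD47 and CD274 were carried by all 4 lines. Beyond these, 786-O carried PDCD1LG2, A498 carried LGALS9, and CAKI-2 carried VTCN1 and LGALS9. In A498, VTCN1 was above 1 CPM in some libraries and at 0.766 CPM in the control. LGALS9 was at 1.03 CPM in the lowest CAKI-2 library and at 0.905 CPM in the highest of 769-P. The counts of carried ligands per line therefore depend on the limit. CD80 was not carried by any line.

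PD-L1 transcript (CD274) was low in all lines and highest in 786-O. Its level in 786-O was 7.15 CPM in the control, 6.32 and 9.48 with sgKDM5C 4 and 5, and 8.15 and 6.88 with sgKDM5D 2 and 4. In CAKI-2, CD274 was at 4.04 CPM in the control, 5.3 and 4.56 with sgKDM5C, and 3.28 and 3.5 with sgKDM5D. In A498 it was at 4.21, 3.64 and 4.64 CPM, and in 769-P at 1.89, 3.2 and 1.97 CPM. The 786-O libraries all lay above those of the other lines and the 769-P libraries below them, while CAKI-2 and A498 overlapped. The mean of 786-O was 1.83 times that of A498 (edgeR adjusted p = 0.00636). A498 and CAKI-2, at 4.16 ± 0.502 CPM (SD, n = 3) and 4.14 ± 0.821 (n = 5), did not pass the test (adjusted p = 0.749). CAKI-2 exceeded 769-P 1.75 times (adjusted p = 0.00334). These values rest on 46 to 264 reads per library, and a long non-coding RNA on the other strand overlaps both CD274 and PDCD1LG2.

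PD-L2 transcript (PDCD1LG2) was found mainly in 786-O. Its counts there were 111 in the control, 55 and 113 with sgKDM5C 4 and 5, and 85 and 78 with sgKDM5D 2 and 4, or 1.88 to 4.18 CPM. A498 had 11, 14 and 18 reads (0.468 to 0.685 CPM). CAKI-2 had 1 read in 5 libraries together and 769-P had 2 reads in 3. The 786-O level was 5.65 times that of A498 in the mean over all libraries. In the edgeR test, over the sgCtrl and sgKDM5C groups, the log2 difference was 2.71 (adjusted p = 6.21e-05). Against the pooled reads of CAKI-2 the ratio of PDCD1LG2 levels was 509 (95% counting interval 90.8 to 20137), and against those of 769-P it was 120 (33 to 994). These intervals cover counting error only. CD274 was thus present in CAKI-2 and 769-P without more than a trace of reads from the neighbouring PDCD1LG2.

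CD80, the third B7 ligand of T cell receptors, had 10 reads in A498 (2 to 5 per library), 2 each in 786-O and CAKI-2, and 0 in 769-P. It overlaps TIMMDC1 on the other strand, so these few reads cannot be assigned with certainty, and no test was made.

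The other B7 members differed from each other in pattern. CD276 (ENSG00000103855, chr15:73976307-74006855, plus strand) was the most even of the tested ligands across lines. Its means were 226 ± 15.9 CPM in CAKI-2, 215 ± 8.43 in 786-O (SD, n = 5 each), 206 ± 25.1 in A498 and 169 ± 16.3 in 769-P (n = 3 each). The values were 150 to 179 CPM in 769-P, 182 to 232 in A498, 207 to 225 in 786-O and 210 to 243 in CAKI-2, so that 769-P lay below the other lines and the other lines overlapped. The range of line means of CD276 was 0.42 on the log2 scale (edgeR adjusted p = 0.0256). The test among lines no longer passed without CAKI-2 sgKDM5C 5 (range 0.43, adjusted p = 0.0645) or without 769-P sgKDM5C 4 (range 0.37, adjusted p = 0.0509). No neighbours in the CD276 order passed the test, with adjusted p of 0.414, 0.538 and 0.117, while CAKI-2 over 769-P did (adjusted p = 0.00659).

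VTCN1 (ENSG00000134258, chr1:117686209-117753582, minus strand) was highest in CAKI-2. It had 201 reads in the CAKI-2 control, 288 and 292 with sgKDM5C 4 and 5, and 219 and 108 with sgKDM5D 2 and 4, that is 5.49, 10, 6.73, 8.54 and 3.82 CPM. A498 had 18 reads in the control and 48 and 56 with sgKDM5C, that is 0.766, 1.8 and 2.13 CPM. In 786-O there were 2 VTCN1 reads in 5 libraries and in 769-P 3 reads in 3 libraries. CAKI-2 exceeded A498 4.41 times in the mean over all libraries. In the edgeR test, over the sgCtrl and sgKDM5C groups, the log2 difference was 2.46 (adjusted p = 9.74e-05). The ratio to the pooled reads of 786-O was 481 (95% counting interval 133 to 3980) and to those of 769-P 174 (59.5 to 846).

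NECTIN2 and PVR, which share receptors on T and natural killer cells and lie 180001 bases apart on chromosome 19, were ordered differently by line. NECTIN2 (ENSG00000130202, chr19:45349432-45392480, plus strand) was at 99.6, 117 and 105 CPM in A498 and at 100, 102, 112, 114 and 104 CPM in CAKI-2. In 786-O, NECTIN2 was at 72.7, 76.1, 78.5, 82.1 and 60.6 CPM, and in 769-P at 57.2, 52.0 and 61.3 CPM. A498 and CAKI-2 did not pass the test against each other (edgeR adjusted p = 0.889), both lay above 786-O without overlap (CAKI-2 over 786-O, adjusted p = 0.00832), and 786-O over 769-P passed (adjusted p = 0.0259) although 1 pair of libraries overlapped. PVR (ENSG00000073008, chr19:45147098-45169430, plus strand) was in contrast highest in 769-P, at 198, 205 and 234 CPM. It was at 167, 189 and 183 CPM in A498, at 109, 135, 124, 115 and 104 CPM in CAKI-2 and at 105, 116, 130, 117 and 95.8 CPM in 786-O. The step in PVR from A498 to CAKI-2 was 1.54 times (adjusted p = 0.000907), while 769-P over A498 (adjusted p = 0.0962) and CAKI-2 over 786-O (adjusted p = 0.663) did not pass. PVR overlaps CEACAM19 on the same strand, so reads in the shared part could belong to either gene.

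LGALS9 (ENSG00000168961, chr17:25956824-25976586, plus strand) had 95, 80 and 82 reads in A498, 29 to 51 in CAKI-2, 10 to 22 in 769-P and 2 to 7 in 786-O. Its level was 3.39 ± 0.57 CPM in A498 (SD, n = 3), 1.29 ± 0.309 in CAKI-2 (n = 5), 0.667 ± 0.282 in 769-P (n = 3) and 0.141 ± 0.0623 in 786-O (n = 5). No libraries of neighbouring lines overlapped, and each step passed the edgeR test, with adjusted p of 0.00213, 0.0493 and 0.00503. From its pooled reads, LGALS9 was 23.8 times (95% counting interval 15.1 to 39.5) higher in A498 than in 786-O. The near-identical genes LGALS9B and LGALS9C together had at most 0.533 CPM in any library, and reads common to the 3 copies could have been split or lost, so the LGALS9 levels are uncertain. A further protein-coding gene overlaps LGALS9 on the same strand.

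CD47 (ENSG00000196776, chr3:107761938-107810709, minus strand), the signal against engulfment, was highest in 786-O. The 786-O values were 70.1, 68.1, 67.3, 69.2 and 72.5 CPM, above all other libraries. A498 was at 43.5, 46.5 and 51.4 CPM, 769-P at 31.8, 52.2 and 29.0 CPM and CAKI-2 at 28.8, 37.7, 28.5, 23.7 and 23.4 CPM. The 769-P value with sgKDM5C 4, the library that stood apart, was 52.2 CPM, against 29.0 and 31.8 in the other libraries of that line. CD47 in 786-O exceeded A498 1.48 times (edgeR adjusted p = 0.0133), while A498 over 769-P (adjusted p = 0.104) and 769-P over CAKI-2 (adjusted p = 0.327) did not pass.

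By edgeR, all 9 tested ligands differed among the lines, where 90.5% of all tested genes did, so the count says nothing particular about the ligands. The median range of line means was 1.76 on the log2 scale over the ligands and 1.94 over all tested genes. Between pairs of lines, 7 of 9 ligands differed between 786-O and CAKI-2 (63.3% of all tested genes), 8 between 786-O and A498 (68.7%), 8 between 786-O and 769-P (50%), 6 between CAKI-2 and A498 (65.8%), 7 between CAKI-2 and 769-P (63.8%) and 6 between A498 and 769-P (69.9%). Between A498 and 769-P the 6 ligands that passed, CD274, PDCD1LG2, CD70, VTCN1, NECTIN2 and LGALS9, were all higher in A498. Of the 7 that passed between CAKI-2 and 769-P, 6 were higher in CAKI-2 and PVR was higher in 769-P. The median log2 difference for A498 over 769-P was 0.911 over the ligands and 0.165 over all tested genes. For CAKI-2 over 769-P it was 0.567 and 0.0967. The share of all tested genes in each direction is not given. Fitted folds of PDCD1LG2 and VTCN1 against lines with almost no reads depend on the fit and are not printed.

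The question of the design was whether guides against KDM5C or KDM5D change the cells. None of the 9 tested ligands passed edgeR at an adjusted p under 0.05 for sgKDM5C against sgCtrl in A498 (0.00496% of all tested genes), 769-P (0.00496%), 786-O (0.00991%) or CAKI-2 (0%), nor for the mean effect over the 4 lines (0.00991%) or its difference among lines (0%). The same held for sgKDM5D against its control in CAKI-2 (0%) and 786-O (0.0149%), and for sgKDM5C against sgKDM5D in CAKI-2 (0%) and 786-O (0.0644%). DESeq2 also called 0 ligands in each of these comparisons. At an unadjusted p under 0.05 there were 2 ligands for the mean sgKDM5C effect, where 5.18% of all tested genes were, 1 for sgKDM5C against sgKDM5D in CAKI-2 (3.38%), and 0 in the others. In those others the share of all tested genes was 1.94% (CAKI-2), 2.92% (786-O), 3.32% (769-P) and 5.55% (A498) for sgKDM5C against its control, and 2.29% for the difference of that effect among lines. It was 0.773% (CAKI-2) and 1.82% (786-O) for sgKDM5D against its control and 4.78% for sgKDM5C against sgKDM5D in 786-O. The looser thresholds of the study, an unadjusted p under 0.05 with a log2 fold change beyond 1, took in 0 ligands, against 1.18% (CAKI-2), 1.89% (A498), 2.09% (769-P) and 2.12% (786-O) of all tested genes for sgKDM5C and 0.644% (CAKI-2) and 1.52% (786-O) for sgKDM5D. KDM5C itself passed for the mean effect, with a log2 fold change of -1.12 (SE 0.133, adjusted p = 0.0154). It did not pass for sgKDM5C against sgCtrl in any single line, although its transcript was at 26.2% to 57.3% of control in these libraries. A ligand that did not pass in a line is therefore not shown to be unchanged there. Every comparison with a control rests on the 1 sgCtrl library of its line, which the sgKDM5C and sgKDM5D comparisons share.

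CD70 and PVR were the 2 ligands with an unadjusted p under 0.05 for the mean sgKDM5C effect, and they moved in opposite directions. CD70 was lower than the line's control in 8 of 8 sgKDM5C libraries, at 64.7% to 96.2% of it, where 1.67% of all tested genes were lower in all 8. Its log2 fold change was -0.34 in CAKI-2 (SE 0.224), -0.31 in 786-O (SE 0.223), -0.27 in A498 (SE 0.223) and -0.25 in 769-P (SE 0.227), and the mean was -0.29 (SE 0.112, 95% interval -0.53 to -0.05). The edgeR p of this mean was 0.021 unadjusted and 0.901 after adjustment, so it failed the correction. The lowest share of control came from the 786-O library with sgKDM5C 4, and without that library the mean CD70 effect was -0.23. With sgKDM5D, CD70 was at 82.5% to 106% of control, lower in 3 of 4 libraries.

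PVR was higher than control in 8 of 8 sgKDM5C libraries, at 104% to 124% of it, where 1.24% of all tested genes were higher in all 8. The PVR log2 fold changes were 0.24 in CAKI-2, 0.23 in 786-O, 0.16 in A498 and 0.15 in 769-P, with a mean of 0.20 (SE 0.0869, 95% interval 0.01 to 0.39). The edgeR p was 0.0408 unadjusted and 0.901 adjusted, so this too failed the correction. With sgKDM5D, PVR was at 91.4% to 112% of control and higher in 2 of 4 libraries.

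**Figure D3:**
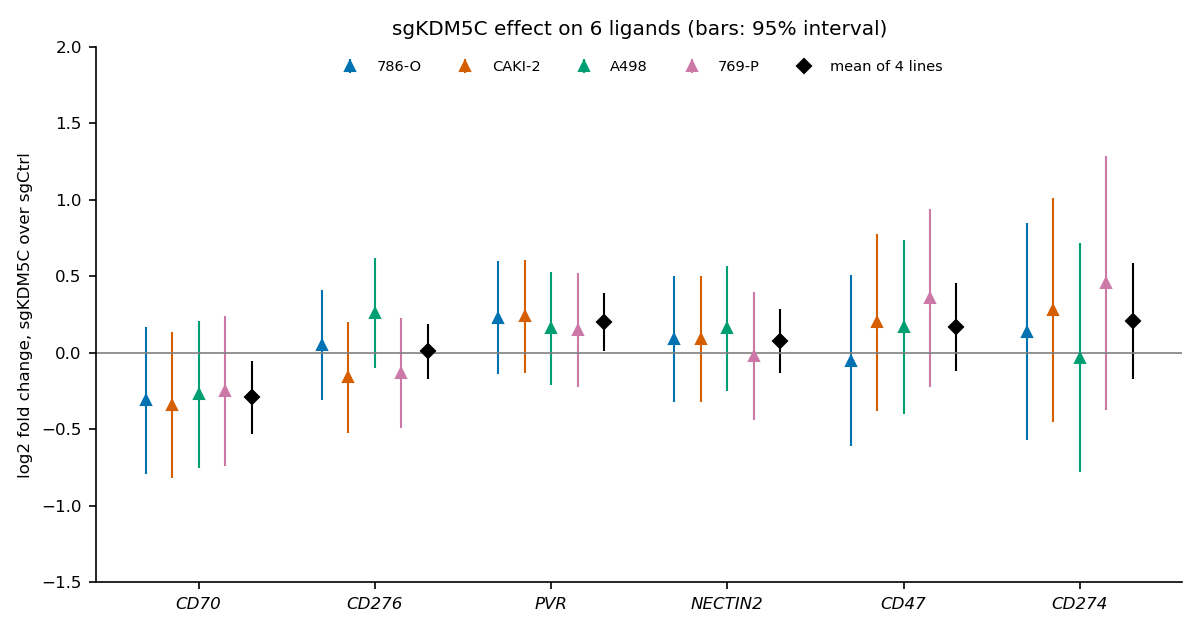
Log2 fold change of sgKDM5C over sgCtrl for the 6 ligands carried by all lines, per line (triangles) and as the mean of the 4 lines (diamonds), with 95% intervals from the edgeR fit as bars. The mean was -0.29 for CD70 and 0.20 for PVR, both with an adjusted p of 0.901, and the intervals of the other 4 means included 0.

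The remaining ligands gave no direction shared by all 8 sgKDM5C libraries. CD274 was higher than control in 6 of 8, at 86.4% to 169% of it, with a mean log2 fold change of 0.21 (95% interval -0.17 to 0.59). NECTIN2 was higher in 7 of 8, at 90.8% to 118%, with a mean of 0.08 (-0.13 to 0.29). CD47 was higher in 4 of 8 with a mean of 0.17 (-0.12 to 0.46), and CD276 in 3 of 8 with a mean of 0.01 (-0.17 to 0.19). These intervals include 0 and also include changes of the size of their bounds, so they do not show that the 4 transcripts were unchanged. The 1 further value with an unadjusted p under 0.05 in the edgeR fit was CD47 in CAKI-2, which was 0.49 higher on the log2 scale with sgKDM5C than with sgKDM5D (SE 0.219, adjusted p = 1).

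The scarce ligands varied more between guides. VTCN1 in A498 had 1.8 and 2.13 CPM with sgKDM5C against 0.766 in the control, a log2 fold change of 1.35 (SE 0.629, edgeR adjusted p = 0.882). In CAKI-2 the VTCN1 difference was 0.61 (SE 0.478, adjusted p = 1). PDCD1LG2 in 786-O had 1.88 CPM with sgKDM5C 4, 4.06 with sgKDM5C 5 and 4.18 in the control, so that the guides of 1 target differed more from each other than sgKDM5C 5 did from the control. LGALS9 was at 48% to 145% of control over the 6 sgKDM5C libraries of CAKI-2, A498 and 769-P, with 10 to 95 reads behind each value.

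Other ligands of the same receptors or of other immune checkpoints were taken from a list of 24 genes, of which 23 were matched and 19 tested. All 19 passed among the lines by edgeR, where 90.5% of all tested genes did. In the comparisons of guides 0 passed, where at most 0.0644% of all tested genes did. The widest of them across lines were LGALS3, CD40 and MICB. LGALS3, the galectin-3 gene, was at 636 ± 41.7 CPM in A498 (SD, n = 3) and at 0.322 ± 0.0722 in 769-P (n = 3), where it had 6 to 11 reads. CD40, a receptor that activates antigen-presenting cells, was at 24.9 to 46.1 CPM in the other lines and had 4 reads in the 3 libraries of 769-P. MICB, a stress ligand of the receptor NKG2D, was at 35.7 ± 3.68 CPM in CAKI-2 (n = 5) and 0.457 ± 0.281 in 769-P (n = 3). All 3 were lowest in 769-P, the line with the fewest carried ligands above. The reverse was seen in HHLA2, a B7 family ligand chosen here after its values were seen, which had a mean of 16.7 CPM in 769-P and at most 0.468 CPM in any library of the other lines.

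Among 12 receptors of the ligands, 7 were tested and 6 passed among the lines by edgeR, where 90.5% of all tested genes did. The transcripts of PDCD1 and CTLA4 had 0 reads in the 16 libraries and CD28 had 1, so almost no reads came from these T cell genes. SIRPA, the receptor of CD47, was read in every line, at 76.2 ± 9.65 CPM in A498 (SD, n = 3), 267 ± 22 in CAKI-2 (n = 5), 284 ± 21.6 in 786-O (n = 5) and 354 ± 26.3 in 769-P (n = 3). CD96, a receptor of PVR, and SIRPG followed in range across lines and reached at most 1.89 and 0.983 CPM.

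The 18 listed regulators of PD-L1 were all tested and all passed among the lines by edgeR, with 0 in the comparisons of guides. Of all tested genes, 90.5% passed among the lines and at most 0.0644% in a comparison of guides. The widest ranges were those of JAK1, HIF1A and EPAS1. JAK1 had 0 reads in each of the 5 CAKI-2 libraries and 5607 to 37567 reads in each library of the other lines. Taking 3 reads over the 5 libraries as the limit that a count of 0 allows, JAK1 was at or under 0.0184 CPM in CAKI-2 and at least 15220-fold lower than in A498. This bound covers counting error only, and whether the 0 belongs to the line or arose in the counting of this gene was not tested. CD274 in these same CAKI-2 libraries was at 3.28 to 5.3 CPM, overlapping A498 and above 769-P, where JAK1 was at 1252 ± 103 CPM (SD, n = 3). Whether the CD274 level depends on JAK1 in these lines was not tested. IRF1, named here after its values were seen, was lowest in CAKI-2 at 15.1 ± 2.45 CPM (n = 5) against 50.5 to 79.6 in the means of the other lines.

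HIF1A was at 116 ± 13.6 CPM in CAKI-2 (SD, n = 5) and 120 ± 31.4 in A498 (n = 3), and at 4.61 ± 0.79 in 786-O (n = 5) and 4.79 ± 1.67 in 769-P (n = 3). EPAS1, which encodes HIF-2-alpha, was at 419 ± 63.3 CPM in A498, 234 ± 56.9 in 786-O, 62.2 ± 9.67 in CAKI-2 and 24.4 ± 6.86 in 769-P. This was the order of the CD70 levels, given as a description over 4 lines and with no test. The order was not particular to EPAS1. The line means of TNFSF9, from the list of other ligands, had it too, at 118, 91.3, 78.5 and 30.3 CPM. In the 786-O library with sgKDM5C 4, CD70 and PDCD1LG2 were at their lowest and EPAS1 at its highest (329 CPM) of the line.

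**Figure D4:**
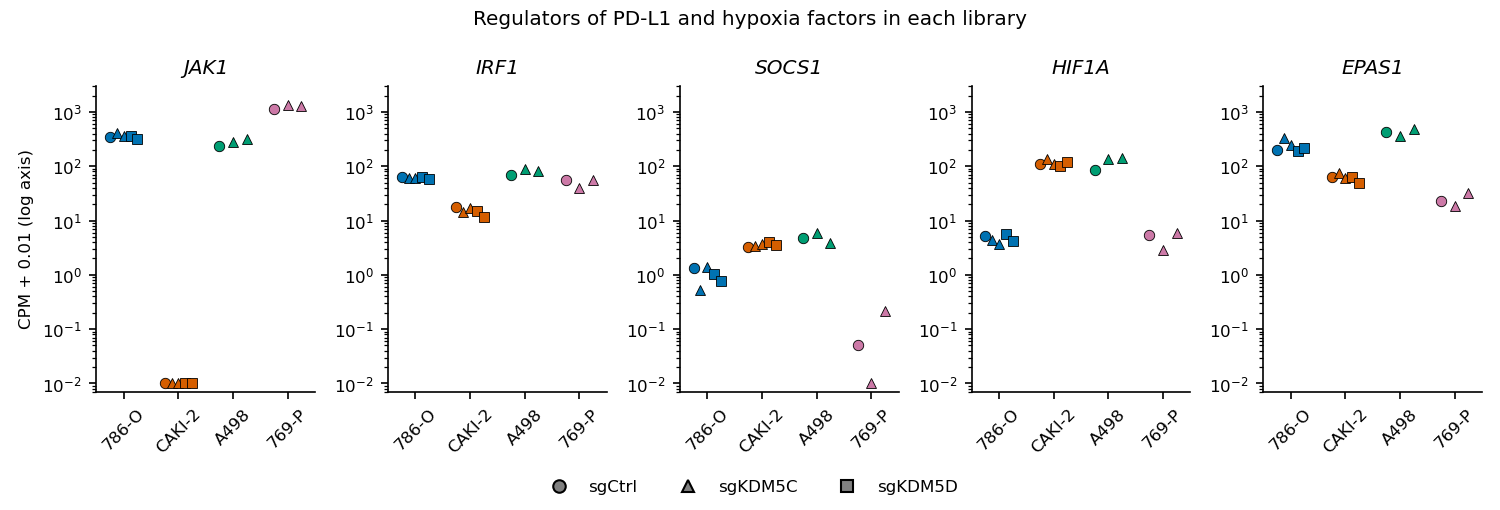
Level of 5 genes upstream of PD-L1 or of the hypoxia response in each library, as CPM + 0.01 on a log axis, by line and genotype. JAK1 had 0 reads in all 5 CAKI-2 libraries, HIF1A was near 5 CPM in 786-O and 769-P and above 80 CPM in CAKI-2 and A498, and EPAS1 fell in the order A498, 786-O, CAKI-2, 769-P.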

How the data were processed

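Raw counts per gene were used as deposited by the authors, who sequenced total RNA as stranded TruSeq libraries, paired-end on an Illumina NovaSeq. The submitters' processing notes name Trimmomatic 0.38, STAR 2.5.2b and GRCh37, while the counter, the annotation release and the strand setting are not given in the sources used here. Gene names and coordinates came from GENCODE release 44 lifted to GRCh37 (43521 of 57773 IDs had a symbol). Promoters came from RefSeq.

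The quasi-likelihood F-test of edgeR 4.0.16 (in R 4.3.3, with TMM factors of 0.935 to 1.07) was run on the 20175 genes whose counts summed to 60 or more. All 16 libraries were fitted with 1 mean for each of 10 groups, 6 residual degrees of freedom and a biological coefficient of variation of 15.2%. P-values were adjusted by Benjamini-Hochberg over all genes tested. SE is the log2 fold change over the square root of F. Ratios of line means given as times are over all libraries of a line, while the test of lines used the sgCtrl and sgKDM5C groups. The number of libraries limits the precision, and no pair of libraries agreed within sampling noise. The fits were tested on simulated data. Alternatives were other size factors, DESeq2 1.42.0, other filters, subsets of libraries, a guide block, an additive fit and the thresholds of the study.

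The ligands and lists were chosen with earlier results of these data known. Named were all 10 ligands and, per list, genes that passed a comparison with a mean of at least 20 counts (up to 3), or the 3 with the widest range of line means of log2(CPM + 0.5). Intervals and floors of reads cover counting error only.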

Additional observations from a re-analysis of the deposited data

How the results depend on the processing

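When a line was represented by its sgCtrl library alone, the number of ligands that differed was 4 for 786-O against A498, 5 for 786-O against 769-P and 4 for CAKI-2 against 769-P. The range of CD276 line means was then 0.43 on the log2 scale with an adjusted p of 0.154. The mean sgKDM5C effect turned its direction for values near 0: CD276 moved from 0.01 to between -0.02 and -0.01 when any of the 4 sgKDM5C 5 libraries was left out. LGALS9, at -0.11, lay between -0.38 (without 786-O sgKDM5C 4) and 0.04 (without 786-O sgKDM5C 5) when 1 library was left out, and was at 0.03 without 769-P sgKDM5C 4. VTCN1, fitted at -0.35 with 786-O and 769-P almost without reads, was at 0.79 in the additive fit. In the other settings, RLE size factors, DESeq2, the 2 other filters and the 12 libraries without sgKDM5D included, no count of ligands moved by over 1.5 times. The same 2 guides against KDM5C were used in every line, so guide was crossed with line. Over genes, the differences between guides 4 and 5 correlated between lines at -0.257 to 0.308. These correlations do not show that a guide had no effect shared by lines, and the main fit held no term for guide. With the replicate block, the count of ligands stayed at 0 in every comparison of guides, was 7 instead of 8 for 786-O against 769-P and 6 instead of 7 for CAKI-2 against 769-P. The share of all tested genes that passed is not given for the sgCtrl-only setting or the block. The lower counts there therefore cannot be read as particular to the ligands. With the union of exons as length, chosen after seeing the data, the CD70 share was 82.8% in A498, 79.3% in 786-O, 42.1% in CAKI-2 and 36.6% in 769-P. The 1 control library per line limits every comparison with sgCtrl.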

Other observations

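The nearest protein-coding genes around JAK1 on chromosome 1 were read in CAKI-2. RAVER2, whose end overlaps that of JAK1, had a mean of 3.01 CPM in CAKI-2 (487 reads) against 8.43 to 17.5 CPM in the means of the other lines. AK4, the next gene on the other side, was at 133 CPM in CAKI-2 and at 59.5 to 151 in the other lines. None of the 8 nearest protein-coding neighbours, 4 on each side, was at 0 reads in CAKI-2. These values do not tell whether the 0 of JAK1 belongs to the line or arose in the counting.

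VSIR, the gene of the checkpoint protein VISTA, was at 50.5 ± 6.43 CPM in A498 (SD, n = 3), 15.6 ± 1.48 in CAKI-2 (n = 5), 2.83 ± 0.443 in 769-P (n = 3) and 1.16 ± 1.01 in 786-O (n = 5). In 786-O its lowest and highest libraries were at 0.368 and 2.9 CPM. LGALS1, the galectin-1 gene, was at 1972 ± 252 CPM in 786-O (n = 5) and 542 ± 61.4 in 769-P (n = 3), and HLA-E was at 145 to 235 CPM in the line means. SOCS1, an inhibitor of JAK signalling, had 6 reads in the 3 libraries of 769-P, the line with the highest mean JAK1 level, and 98 to 158 reads per library in CAKI-2 and A498. These genes were named after their values were seen.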
